A study of Mus musculus with 15 samples.

Results

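A set of 9 genes for cytoskeletal, channel, membrane and soluble lens proteins was followed through ChIP-seq of lens chromatin: the cytoskeletal genes Bfsp1 and Bfsp2, the membrane genes Mip and Lim2, the gap junction genes Gja3 and Gja1, and Grifin, Lgsn and Dnase2b, which encode soluble fibre proteins and a nuclease. All are known from fibre cells except Gja1, which is best known from the lens epithelium. They were listed by name, with earlier results of these data known, out of 22342 protein-coding genes of the mouse annotation (GENCODE vM1 on mm9). For each gene, the regions called in its body and 20 kb to either side were collected from 9 lists.

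The lens grows when epithelial cells at its equator leave the cell cycle, elongate into fibre cells, fill with crystallins and lose their nuclei and organelles. Filensin (Bfsp1) and phakinin (Bfsp2) form the beaded filaments that only lens fibres possess, and AQP0 (Mip) and the tetraspan protein of Lim2 are abundant proteins of the fibre membrane. Methylation of histone H3 at lysine 4 marks regulatory DNA: H3K4me3 marks active promoters, H3K4me1 marks distal elements, and H3K4me2 is found at both.

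The series addresses how binding of Pax6, a transcription factor needed for lens formation, relates to H3K4 methylation. The αTN4 line comes from lens epithelium of mice that express the SV40 large T antigen in the lens. It carried a lentiviral shRNA in both arms, a control shRNA or an shRNA against Pax6 (Pax6 KD), and stably infected cells were taken as pooled populations under puromycin (for Pax6 KD, the construct sh2), so both arms are transformed epithelial cells in culture. In control cells Pax6, RNA polymerase II (Pol2), H3K4me1, H3K4me2 and H3K4me3 were measured, in Pax6 KD cells the 3 methylation marks, and in lenses of newborn CD-1 mice, aged 1 day, H3K4me2. The lens is a whole tissue that holds epithelium and fibres, so a difference between lens and αTN4 cells cannot be told apart from one between tissue and culture. One label field swaps the antibodies of the Pax6 and Pol2 libraries, which were assigned by their titles. RNA-seq and input libraries were not analysed here.

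Each condition had 1 library, so no replicate error exists and no test between conditions was made; counts are set beside the same count over all protein-coding genes. The H3K4me2 lists held 56214 peaks in lens, 66274 in control and 65852 in Pax6 KD cells. H3K4me1 had 38007 islands in control and 18417 in Pax6 KD cells, H3K4me3 had 14869 and 14301 peaks, Pol2 17204 and Pax6 504. The sequencing depth behind the peak lists is unknown; the H3K4me1 islands held 3289553 ChIP reads in control and 1849269 in Pax6 KD cells. Fold enrichment is the authors' ratio of a peak over its background, and it was compared between lists only as a percentile. The percentile is the rank of a fold in its list, lowest first, in percent of the number of regions there. Tied folds share their mean rank.

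At promoters, taken as 2 kb to either side of a transcription start, H3K4me2 was present at 7 of the 9 genes in newborn lens, against 66.8% of all protein-coding genes. Lgsn and Dnase2b were the exceptions. In control αTN4 cells 2 of the 9 promoters, those of Gja3 and Gja1, held an H3K4me2 peak, against 58.2% of all genes, and the same 2 did in Pax6 KD cells, against 57.1%. None of the 9 promoters held an H3K4me3 peak in control cells (49.1% of all genes), a Pol2 peak (48.0%) or a Pax6 peak (0.255%). In Pax6 KD cells 1 promoter, that of Gja1, held an H3K4me3 peak, against 47.8% of all genes. An H3K4me1 island reached 1 promoter in control cells, that of Grifin (36.0% of all genes), and none in Pax6 KD cells (16.8%). Bfsp1, Bfsp2, Mip, Lim2 and Grifin thus had promoter H3K4me2 in lens and not in control cells, 5 of 9 against 11.7% of all genes, and for all of these except Grifin, 4 of 9 against 10.2%, no cell line list held any region there. The reverse, H3K4me2 in control cells and not in lens, was found at 0 of the 9 promoters and at 3.13% of all genes.

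**Figure D1:**
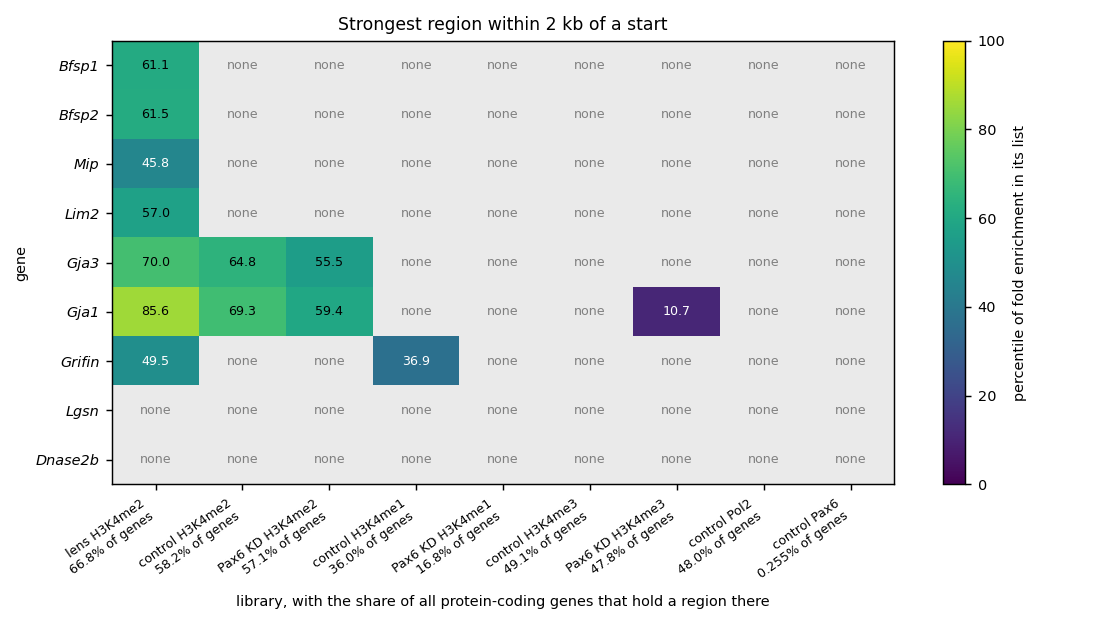
Strongest region within 2 kb of a start for each gene (rows) and library (columns), as the percentile of its fold enrichment in its own list; under each library stands the share of all protein-coding genes with a region. The lens column is filled for 7 genes, the H3K4me2 columns of αTN4 cells only for Gja3 and Gja1, and the Pol2 and Pax6 columns are empty.

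The lens peaks at these promoters were of middling strength. The strongest promoter peak of a member ranked at a median percentile of 61.1 over the 7 genes, while over the 14927 genes with a lens promoter peak the median was 86.4. Only Gja1, at 85.6, came near that value, and Mip was lowest at 45.8.

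Bfsp1 lies on the minus strand of chromosome 2 from 143652264 to 143688909. Its lens promoter peak, from 143687929 to 143689313, covered both annotated starts (fold 9.74, −log10 q 25.6). In αTN4 cells this stretch was empty, yet the gene was not without H3K4me2. Control cells had a peak of 936 bp 4.5 kb upstream of the start, at percentile 68.4, where the lens had only a peak at percentile 7.61. A second control peak, of 1511 bp and 10.0 kb into the gene, had no counterpart in lens and lay inside an H3K4me1 island of 112 ChIP reads. The last, in an intron 25.6 kb from the start, was shared by all 3 libraries with 388 bp in lens, 359 bp in control and 319 bp in Pax6 KD cells. Summed over the window, the H3K4me2 length of Bfsp1 was therefore close between lens (2579 bp), control (2806 bp) and Pax6 KD cells (2683 bp), although its place differed.

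Bfsp2, on the minus strand of chromosome 9 from 103327250 to 103382658, had the longest promoter domain of the 5 genes with H3K4me2 in lens and not in control cells. A lens peak of 3039 bp, from 103379616 to 103382654, ended 4 bp short of the start, and a second of 930 bp began 192 bp beyond it, so that the start itself lay in a gap of 195 bp. Within 5 kb of the start, lens H3K4me2 covered 5199 bp and control and Pax6 KD cells 0 bp. This length exceeded that of 96.2% of all genes in lens and ranked 91 among the 2618 genes with promoter H3K4me2 in lens and not in control cells. Of the 12 lens peaks in the window, 1 met a control peak: an intronic site 36.6 kb from the start with 1360 bp in lens, 1062 bp in control and 920 bp in Pax6 KD cells. In each of the lens and control lists that site stood near the middle, at percentiles 53.6 and 56.5, and in Pax6 KD cells at 33.0.

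Mip lies on the plus strand of chromosome 10 from 127662894 to 127668868. In lens, a peak of 499 bp upstream and one of 2275 bp in the gene flanked the start, with folds of 6.06 and 4.79, and left a gap of 695 bp. Their 2774 bp stood against 0 bp in control and in Pax6 KD cells among the peaks nearest to Mip. The H3K4me3 and Pol2 peaks in the Mip window all lay at its neighbours Spryd4 and Timeless, whose start is beside the Mip 3′ end. Spryd4 had a control H3K4me3 peak at percentile 79.7 and Timeless a Pol2 peak at percentile 89.8, while the strongest lens H3K4me2 peak of the window, from 127647417 to 127649684 at a fold enrichment of 28.2, also lay at Spryd4. The promoter of Mip, without a called region, sat between 2 marked ones in αTN4 cells.

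Lim2, on the plus strand of chromosome 7 from 50683040 to 50691363, has a start at each of 50683040 and 50685458. The lens promoter peak, from 50685432 to 50686539, covered the second, with a fold of 8.35 at percentile 57.0, and no peak lay within 2 kb of the first. A site 4.3 kb upstream of the first start was at percentile 43.7 in lens and 1.12 in control cells, and had no peak in Pax6 KD cells. The H3K4me3 and Pol2 peaks of the window lay at the start of the neighbour Etfb, as did its strongest lens H3K4me2 peak, from 50698053 to 50700688 at percentile 96.1.

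The promoter stretches of 4 of the 5 genes with H3K4me2 in lens and not in control cells are shown so that the DNA under the comparison can be read. Each runs 5′ to 3′ along the gene, on mm9, and ends just before the transcription start, except for Lim2, where the stretch stops before an exon of its longer transcript. Capitals mark the Maf core word TGCTGA, or TCAGCA on the other strand, which was the only searched word found in them.
Bfsp1, chr2:143688910-143689159, minus strand: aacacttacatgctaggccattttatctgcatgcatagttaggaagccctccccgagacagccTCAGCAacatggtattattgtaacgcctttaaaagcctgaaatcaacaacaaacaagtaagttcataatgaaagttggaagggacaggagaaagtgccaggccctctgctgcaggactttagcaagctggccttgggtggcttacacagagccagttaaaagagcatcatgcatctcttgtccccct
Mip, chr10:127662644-127662893, plus strand: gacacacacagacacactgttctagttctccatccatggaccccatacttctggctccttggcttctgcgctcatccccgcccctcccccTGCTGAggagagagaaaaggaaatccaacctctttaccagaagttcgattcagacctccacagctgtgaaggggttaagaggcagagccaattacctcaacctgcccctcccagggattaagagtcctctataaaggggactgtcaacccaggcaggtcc
Lim2, chr7:50685208-50685333, plus strand: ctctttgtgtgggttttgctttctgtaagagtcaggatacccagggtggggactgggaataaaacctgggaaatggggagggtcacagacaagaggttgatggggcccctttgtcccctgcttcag
Grifin, chr5:141041026-141041275, minus strand: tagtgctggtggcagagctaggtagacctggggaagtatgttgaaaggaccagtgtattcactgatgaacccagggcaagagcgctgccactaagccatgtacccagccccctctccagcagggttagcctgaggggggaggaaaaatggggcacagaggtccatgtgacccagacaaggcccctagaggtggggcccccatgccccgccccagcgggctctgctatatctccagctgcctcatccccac

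Maf proteins are transcription factors known for driving fibre genes. The word occurred in the 250 bases upstream of Bfsp1, Mip and Lim2, 3 of these 4 promoters, beside 14.9% of the 45940 promoter stretches of that length in the annotation; in Lim2 it spans the end of the printed stretch. Of the 4 genes without this pattern, Gja1 and Lgsn held it upstream of their first start and Gja3 and Dnase2b did not, and Bfsp2 was not counted. AP-1 (TGACTCA or TGAGTCA), Sox (CCATTGT) and Pax6 paired domain (TTCACGC) words, searched on both strands, occurred in 0 of the 4 printed promoters, beside 3.71%, 2.36% and 1.16% of all promoters, and an AP-1 word occurred upstream of Gja1. TGCTGA shares no whole word with the others. In windows of 300 bp around the summits of the 39 lens H3K4me2 peaks nearest to the 9 genes, the Maf word was present in 8 (20.5%, beside 23.1% of 56205 lens summits), the AP-1 words in 3 (7.69%, beside 4.37%), the Sox word in 1 (beside 3.93%) and the Pax6 word in 0 (beside 1.53%). These are matches of letters, and no binding was measured for Maf, AP-1 or Sox.

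The promoters differed in base composition. The ratio of observed to expected CpG from 500 bp before to 500 bp after the first start was 0.13 at Grifin, 0.19 at Mip, 0.24 at Bfsp2 and 0.38 at Lim2, and 0.79 at Bfsp1. Gja3 had 0.86, Gja1 0.50, Lgsn 0.26 and Dnase2b 0.27. The Lim2 value is from its first start, at 50683040, whereas its lens promoter peak covered the second, at 50685458. Beside these, the median was 0.73 over the 12309 genes with promoter H3K4me2 in both lens and control cells, 0.55 over the 2618 genes with it in lens and not in control cells, and 0.17 over the 6716 genes with neither. Bfsp1 was thus a CpG-rich promoter without H3K4me2 in αTN4 cells, and Mip and Grifin were CpG-poor promoters that carried it in lens.

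The intronic site of Bfsp2 that held H3K4me2 in all 3 libraries is shown as the counterpart of a promoter marked in lens and not in αTN4 cells, and was chosen after its values were seen. The stretch is 300 bases around the summit of the lens peak, on the plus strand of mm9, and held none of the searched words.
Bfsp2 intron, chr9:103345887-103346186: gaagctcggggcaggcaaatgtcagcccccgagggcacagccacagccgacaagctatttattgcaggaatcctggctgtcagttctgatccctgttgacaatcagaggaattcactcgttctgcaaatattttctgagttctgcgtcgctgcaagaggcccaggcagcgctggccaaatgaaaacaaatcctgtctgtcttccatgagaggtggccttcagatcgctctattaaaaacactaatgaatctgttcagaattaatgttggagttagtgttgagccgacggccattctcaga

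**Figure D2:**
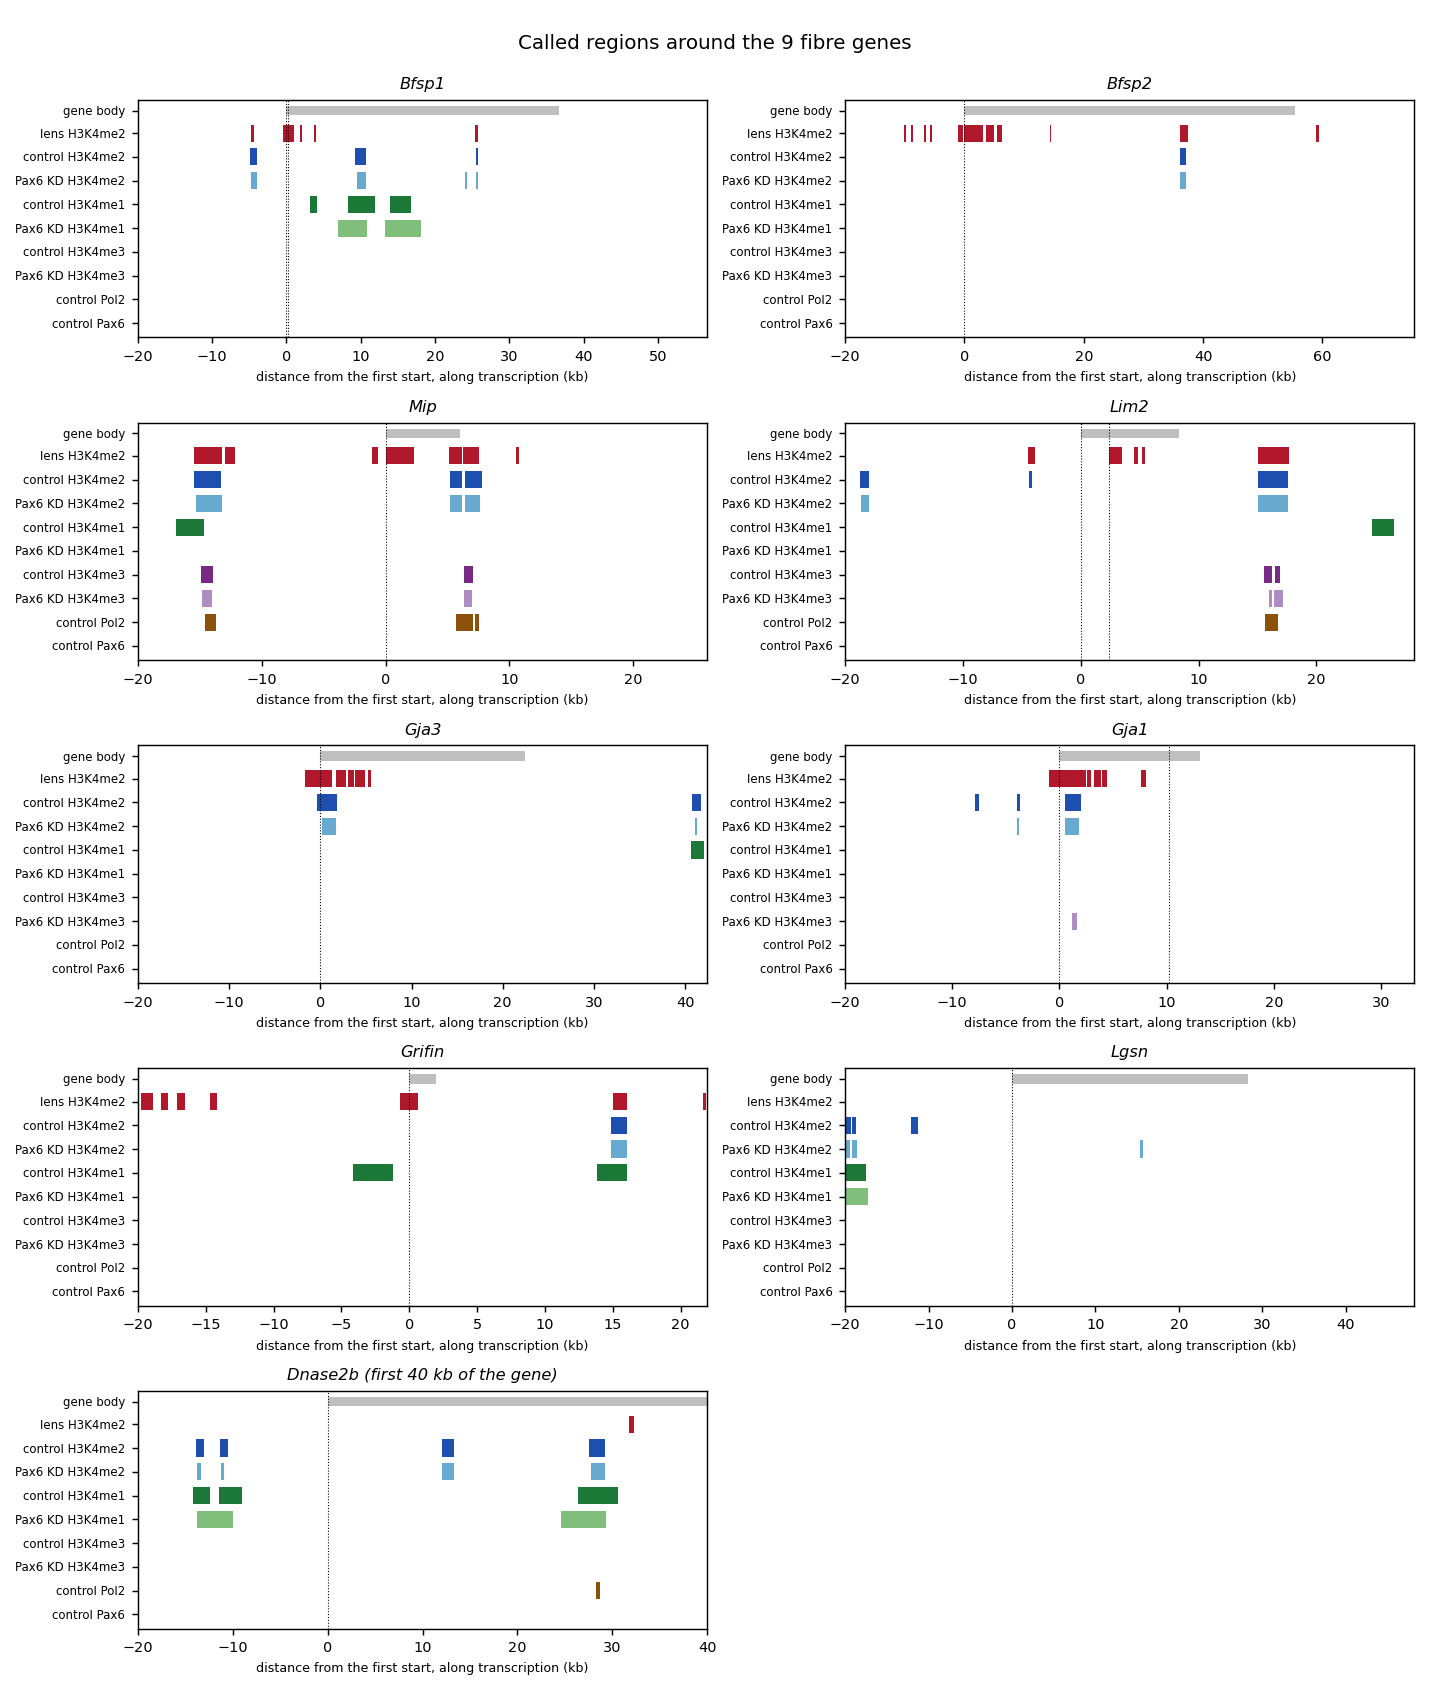
Called regions of all 9 libraries along each gene, with distance from the first transcription start in kb (x) and library (y). Dotted lines are starts, grey bars gene bodies, and very narrow regions are drawn at a minimum width. The Dnase2b panel is cut to the first part of its window, so its H3K4me3 peaks and most of its Pol2 peaks are not drawn. Lens H3K4me2 (red) sits at the start of 7 genes, and for Bfsp1, Bfsp2, Mip and Lim2 no αTN4 region lies within 2 kb of a start; the Pol2 and H3K4me3 marks beside Mip and Lim2 belong to neighbouring genes.

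Gja3 and Gja1 encode the connexins Cx46 and Cx43, subunits of gap junction channels; Cx46 is a fibre protein. Both promoters held H3K4me2 in all 3 libraries with neither Pol2 nor H3K4me3 in control cells, a state of 2 of the 9 genes and of 5.18% of all genes. The Gja3 peak, on chromosome 14, spanned 2945 bp in lens (57675588 to 57678532, fold 14.7), 2166 bp in control and 1620 bp in Pax6 KD cells. The Gja1 peak, on chromosome 10, spanned 3386 bp in lens (56096164 to 56099549, fold 23.2, −log10 q 93.1), 1531 bp in control and 1317 bp in Pax6 KD cells. In both genes the lens domain was the widest of the 3 and extended upstream of the start. At Gja3 the control peak also covered the start, while the Pax6 KD peak ended 130 bp short of it. At Gja1 the control and Pax6 KD peaks began 489 and 546 bp downstream of the start. Within 5 kb of the start, lens H3K4me2 covered 5868 bp at Gja3 and 4808 bp at Gja1, more than at 98.0% and 94.7% of all genes. Control cells had 2166 and 1844 bp, more than at 59.9% and 53.9% of genes. The H3K4me3 peak of Gja1 in Pax6 KD cells, from 56098296 to 56098699, had a fold of 5.66 and stood at percentile 10.7 of its list.

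**Figure D3:**
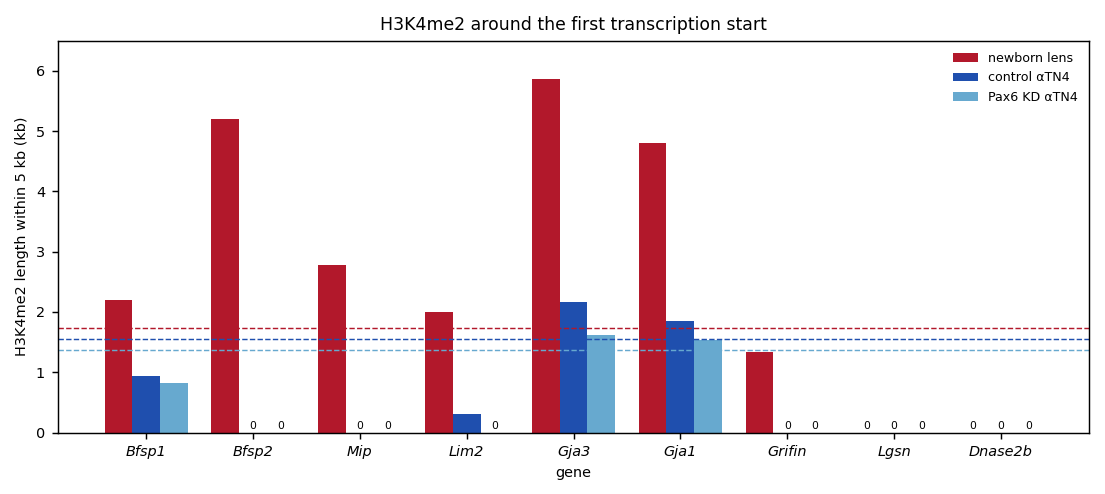
Length of H3K4me2 within 5 kb of the first start (kb) for each gene in newborn lens, control and Pax6 KD αTN4 cells, 1 library each; dashed lines are the medians over all protein-coding genes, 1728, 1544.5 and 1368 bp. Bfsp2, Gja3 and Gja1 have 4808 to 5868 bp in lens, Bfsp2, Mip and Grifin have 0 bp in both arms of αTN4 cells, and Lgsn and Dnase2b have 0 bp throughout.

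Grifin, a galectin-related lens protein that is thought to lack sugar binding in mammals, lies on the minus strand of chromosome 5 from 141039073 to 141041025. Its lens promoter peak of 1332 bp (141040388 to 141041719) had a fold of 6.58 at percentile 49.5. A further 4 lens peaks lay 14.5 to 19.2 kb upstream, none of which met a control peak; one of them, from 141057546 to 141058150, had the highest −log10 q of the window, 14.2, shared with 1 other peak. A site 15.5 kb downstream of the start was shared, at percentiles 51.2 in lens, 50.9 in control and 69.7 in Pax6 KD cells. The folds of several Grifin and Bfsp2 lens peaks were the same number, 6.85, so ranks in that range separate peaks poorly.

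Lgsn encodes lengsin, a protein of the glutamine synthetase family found in fibres, and Dnase2b the lysosomal nuclease that degrades fibre nuclear DNA. No region of any list lay at the promoters of these 2 genes, a state shared by 28.0% of all genes. Lgsn, on chromosome 1 from 31233251 to 31261501, had no lens peak in its window. It lay in a gap of 1220936 bp between lens H3K4me2 peaks, a length reached by 169 of the 56193 gaps in that list. The same stretch held 15 H3K4me2 peaks in control and 14 in Pax6 KD cells, with 8 and 4 H3K4me1 islands and no Pol2, H3K4me3 or Pax6 peak. The 3 control H3K4me2 peaks of the Lgsn window lay 11.9 to 19.6 kb upstream. Dnase2b, on chromosome 3 from 146067777 to 146259576, had 1 lens peak nearest to its start, 32.0 kb away at percentile 45.8. Among the peaks nearest to its start, control cells had an intronic one 12.8 kb away and one 28.2 kb away at percentile 75.5. The latter held the only Pol2 peak nearest to any of the 9 genes (146230920 to 146231252, fold 4.01, percentile 7.15). Control cells also had peaks 11269 and 13477 bp upstream, both met by a Pax6 KD peak and by no lens peak. They were assigned to Uox, whose start lay 10716 and 12924 bp from them.

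The Dnase2b window is set by 1 annotated transcript of 191.8 kb with a last exon of 14 bp beside the start of Ssx2ip, while the other Dnase2b transcript spans 15.6 kb. All H3K4me3 peaks in the long window and the other Pol2 peaks lay at the starts of Ssx2ip, Ctbs, Spata1, Gng5 and Rpf1, and the strongest lens H3K4me2 peak, from 146066828 to 146067578 at percentile 88.0, lay at Ssx2ip. Values for peaks nearest to the gene are therefore given beside those of the whole window.

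Over the 9 windows the lists placed 58 lens H3K4me2 peaks, of which 39 were nearer to a start of the 9 genes than to any other. Control cells had 40 and 16, and Pax6 KD cells 38 and 15. Of the 58 lens peaks, 37 did not meet a control peak, or 63.8% (95% Wilson interval 50.9 to 74.9, counting error only), beside 54.6% of the whole lens list. Among the 39 nearest peaks it was 31, or 79.5% (64.5 to 89.2). Intervals here and below treat regions as independent, although they cluster by gene: Bfsp2 held 11 of the 39 and Grifin 6. In the other direction, 7 of the 16 nearest control peaks met a lens peak, or 43.8% (23.1 to 66.8), beside 41.3% of the whole control list.

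The length covered by H3K4me2, with 500 bp added to each side of the ratio, was at least 2-fold longer in lens than in control cells at 3 of the 9 windows, against 10.6% of all genes, and at least 2-fold shorter at 1, against 12.9%. The longer windows were those of Bfsp2 (log2 ratio 2.61), Grifin (1.75) and Gja1 (1.07), and the shorter was that of Lgsn (−2.33). The windows of Mip and Lim2 include neighbours marked in both samples, and their ratios were 0.81 and 0.39. With only the peaks nearest to the gene, a choice added after seeing the data, 5 of 9 were longer, against 12.7% of all genes, and 2 shorter, against 14.7%. Mip then had a log2 ratio of 2.71, Bfsp2 2.53, Lim2 1.75, Grifin 1.70 and Gja1 1.07, followed by Gja3 with 0.87 and Bfsp1 with −0.10. Dnase2b (−1.67) and Lgsn (−2.33) lay on the other side. The median over the 9 genes was 1.07, beside 0 over all genes.

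**Figure D4:**
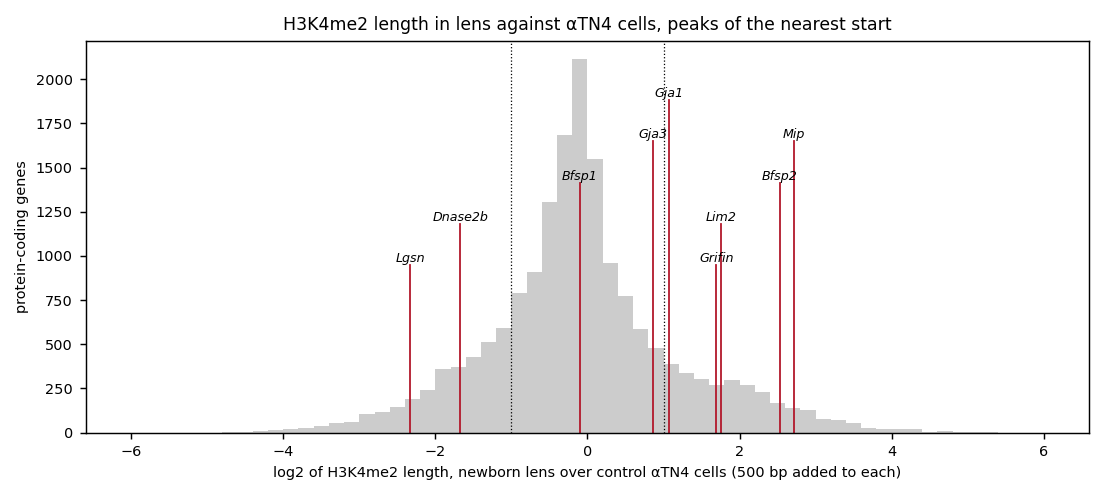
Distribution over protein-coding genes with any such peak of the log2 ratio of H3K4me2 length in newborn lens to that in control αTN4 cells, from peaks nearest to the gene, with the 9 fibre genes as red lines; dotted lines mark a 2-fold ratio. Mip, Bfsp2, Lim2, Grifin and Gja1 lie above 2-fold, Dnase2b and Lgsn below it, and Bfsp1 lies at −0.10.

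No Pax6 peak of control cells lay in any of the 9 windows, and 2.09% of all genes had one in a window made the same way. The nearest, beside Ttll7, was 305 kb from the start of Dnase2b, and the farthest of the nearest was 10029 kb from Bfsp2. For the other 7 genes the distance was between 1832 kb (Bfsp1) and 7521 kb (Mip). The median distance was 2995 kb over the 9 genes and 1854 kb over all genes. The list holds 504 Pax6 peaks in all and comes from αTN4 cells; Pax6 binding in lens was not analysed here.

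Most of these H3K4me2 sites were also called in Pax6 KD cells. Of the 40 control peaks in the windows, 33 met a Pax6 KD peak, or 82.5% (68.1 to 91.3), beside 82.5% of the whole control list. Nearest to the 9 genes it was 13 of 16, and the 3 without a counterpart were the weak site upstream of Lim2, one upstream of Lgsn and one 7.8 kb upstream of Gja1. Of the 15 Pax6 KD peaks nearest to the 9 genes, 2 had no control counterpart (13.3%, beside 7.34% of the whole Pax6 KD list), in introns of Bfsp1 (218 bp) and Lgsn (347 bp). Covered H3K4me2 length differed at least 2-fold at 0 of 9 windows, against 0.900% of all genes shorter and 0.166% longer. Of the 13 kept peaks, 12 were narrower in Pax6 KD cells, or 92.3%, beside 71.7% of the whole list. Their percentile was lower in 8 of 13 (61.5%, beside 57.4% of the whole list), with a median change of −5.21 points beside −1.85 in the whole list. The intronic site of Bfsp2 showed the largest drop of the 13, from 56.5 to 33.0, the promoter of Gja3 moved from 64.8 to 55.5 and that of Gja1 from 69.3 to 59.4. The site downstream of Grifin went from 50.9 to 69.7. Without replicates these shifts cannot be set against the spread between libraries.

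**Figure D5:**
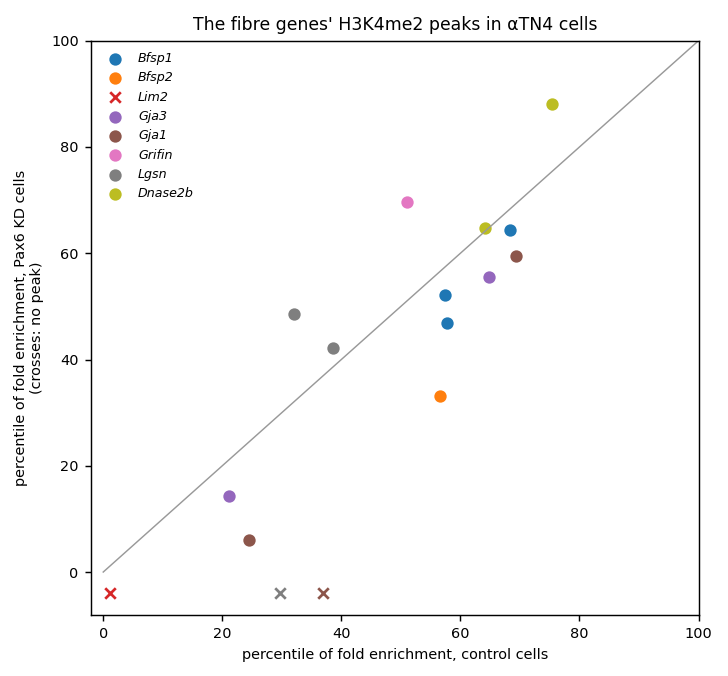
Percentile of fold enrichment of the 16 control H3K4me2 peaks nearest to the fibre genes (x) and of the overlapping peak in Pax6 KD cells (y), coloured by gene; crosses have no Pax6 KD peak. Of the 13 kept peaks, 8 lie below the line of equal percentile, and the sites of Grifin, Lgsn and Dnase2b lie above it.

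H3K4me1 islands were fewer at these genes after Pax6 knockdown, as they were over the genome. Of the 20 control islands in the windows, 9 met a Pax6 KD island, or 45.0% (25.8 to 65.8), beside 46.2% of the whole list. Island length was at least 2-fold shorter in the windows of Mip, Lim2, Gja3 and Grifin, 4 of 9 against 33.2% of all genes. From islands nearest to the gene, it was shorter at 2 of 9, Gja3 and Grifin, against 26.4%. Both Grifin islands, with 45 and 38 ChIP reads, had no counterpart, although the H3K4me2 peak inside the second kept its length (1184 bp and 1179 bp). At Gja3, an island of 33 ChIP reads beyond the gene end had no counterpart and the H3K4me2 peak inside it went from 1013 to 231 bp. The island over the intronic site of Bfsp1 was kept with 86 reads for 112, and its density went from 31.1 to 21.5 reads per kb. At Lgsn the density of the upstream island went from 28.1 to 16.2 reads per kb, a log2 change of −0.79. Over the 9 kept islands the median log2 change was 0.02 relative to the −0.32 of all 17559 kept islands. Of these 9, 5 lay nearest to neighbours of Dnase2b, and over the other 4, nearest to Bfsp1, Lgsn and Dnase2b, the median relative change was −0.21. Among the 5, 2 control islands nearest to Uox, of 46 ChIP reads each, met the same Pax6 KD island of 79 reads. That island was thus used for both, with relative changes of 0.43 and 0.02, the latter being the median. The control H3K4me3 peaks in the windows, all at neighbouring genes, were kept in 10 of 10, beside 89.9% of the whole list.

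Other genes of the fibre cell were mostly marked in both lens and αTN4 cells. A list of 19 genes of fibre junctions, cytoskeleton, chaperones and regulators, such as Vim, Hsf4, Maf and Prox1, had 18 in the annotation. All 18 had promoter H3K4me2 in lens and 17 had it in control cells, Birc7 being the exception; 16 had H3K4me3 and 15 Pol2 in control cells. Of the list, 1 gene, Birc7, had H3K4me2 in lens and not in control cells, beside the 5 of 9 above. Among 11 markers of lens fibres, which include 8 of the 9 genes, 8 had promoter H3K4me2 in lens, 2 in control cells, and 0 had H3K4me3 or Pol2 in control cells. These counts therefore largely repeat those above. Of the fibre markers outside the 9 genes, Crybb1 had promoter H3K4me2 in lens and control cells, Crygd in lens only and Cryba1 in neither. Among 6 markers of lens epithelium, which include Gja1, the lens had it at 6 and control cells at 3, with H3K4me3 at 2 and Pol2 at 2. Defining markers of other tissues were not all empty in the lens library. Promoter H3K4me2 was present at 2 of 4 retina, 1 of 3 pigment epithelium, 0 of 3 surface epithelium, 2 of 3 endothelium, 1 of 3 blood and 2 of 3 mesenchyme markers. In control cells the counts were 0, 0, 1, 1, 1 and 3. H3K4me2 in lens and not in control cells was found at 6 of the 11 fibre, 3 of the 6 lens epithelium, 1 of the 3 pigment epithelium (Dct) and 2 of the 3 endothelium (Kdr, Cdh5) markers, and at 0 of the surface epithelium, blood and mesenchyme markers. Of those 6 fibre markers, 5 were among the 9 genes and the other was Crygd. The part of other cell types in the lens values was not tested.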

How the data were processed

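ChIP-seq of control and Pax6 KD αTN4 cells and of newborn lens was analysed from the lists of regions, 1 library per condition. Bowtie was used by the authors for alignment to mm9, MACS2 for peaks and SICER for H3K4me1 islands, at default settings and with blacklisted regions filtered. In the peak lists the fold enrichment (a ratio) and the −log10 of p and q are values deposited by the authors. Islands carry a deposited count of ChIP and control reads, a fold, and a p-value with its FDR; the control library is not named. Peak names in the control H3K4me2 list hint at pooled replicates, which no source states.

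The 9 genes, the gene lists and the motif words were chosen with earlier results of these data known. All 9 genes are named, as are the strongest H3K4me2 peaks of each window and start and every Pax6, Pol2 and H3K4me3 peak or the neighbour it lies at. Coordinates are 1-based and as deposited. Overlap means at least 1 bp. Starts are those of protein-coding transcripts. Covered lengths are the union of regions. A control region was kept when overlapped by a region of that mark in Pax6 KD cells. Reads per kb of kept islands were centred on the median of the whole list of kept islands. No p-value was computed, since each condition has 1 library. The overlap and length code was checked on simulated regions. Sequences were read from mm9; some genes of the lists and some sequence stretches are not reported here. Of the fibre gene list, Sptbn1 was matched by its older symbol and Sox1 was not matched. Alternatives covered window size, promoter reach, stricter regions, added length and scaling. The analysis used pandas 2.3.3, NumPy 2.4.6 and pysam 0.24.0 in Python 3.11.15, and figures were drawn with matplotlib 3.10.9.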

Additional observations from a re-analysis of the deposited data

How the results depend on the processing

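Of 126 alternatives over 24 results, 104 were counted as unchanged and 22 as moved. Counts had to stay within 1.5 times the reported count, and shares within their interval. The 104 include counts that were 0 in every setting. They also include the median H3K4me1 change for the nearest start, −0.21 where 0.02 was reported. With a promoter reach of 5 kb, 4 genes had control H3K4me2 and 2 control H3K4me1; with 1 kb, 0 had control H3K4me1 and 0 Pax6 KD H3K4me3. With the first start of each gene alone, lens H3K4me2 was at 6 promoters, without Lim2. The count of windows at least 2-fold longer in lens, 3 as reported, was 5 with 10 kb margins, 1 with 50 kb, 6 for gene bodies alone, 5 for regions centred in the gene or nearest to its start, 5 when scaled by the total of each list and 5 for the nearest start only. The count of shorter windows, 1 as reported, was 0 with 10 kb margins, 0 for gene bodies, 2 for the nearest start and 2 with the short Dnase2b transcript. The count of windows with shorter H3K4me1 in Pax6 KD cells, 4 as reported, was 1 with 10 kb margins, 2 with 50 kb and 2 for the nearest start. The share of lens peaks without control H3K4me2 was 79.5% for the nearest start. The median H3K4me1 change was −0.30 when not centred. Pol2 peaks in the windows, 10 as reported, numbered 20 with 50 kb margins, 1 for the nearest start and 5 with the short Dnase2b transcript. The nearest-start and short-transcript settings were chosen after seeing the data. No paired analysis was possible because each ChIP-seq condition has 1 library and the results come from no test. With unknown depth, a missing peak means that none was called, and calls depend on the depth and antibody of each library.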
